A study of Bombyx mori with 4 samples.

Results

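Digestive serine proteases were examined in the midgut of the silkworm, Bombyx mori, on day 2 of the fifth larval instar. The members were the gene models whose best protein hit carried trypsin, chymotrypsin, serine protease or serine proteinase in its name, without inhibitor, serpin or clip, and they numbered 37 of 5558 models. There were 4 libraries, 1 per group: larvae of variety 932 (heat-tolerant in the labels) exposed to high temperature, 932 control larvae, larvae of variety HY (heat-sensitive in the labels) exposed to high temperature, and HY control larvae. The sources used here do not give the temperature, the length of the exposure or the number of larvae behind a library. With 1 library in each group, every difference below is between libraries and has no replicate check. Values are tags per 1000000 tags of the library (RPM), uncorrected for gene length. A share of tags may therefore depend on transcript length as well as on transcript number.

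Serine proteases of the trypsin family cut proteins with a catalytic serine, supported by a histidine and an aspartate. Trypsins cut after lysine or arginine and chymotrypsins mainly after large aromatic residues. In caterpillars the midgut epithelium secretes them as inactive precursors into an alkaline gut lumen, where they begin the digestion of leaf protein, and aminopeptidases and carboxypeptidases then shorten the fragments. Some relatives work outside digestion, in the blood cascades of immunity or in other tissues.

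By name, not all of the members are digestive proteases. The hit names were those of 11 trypsins, 6 chymotrypsins and 20 other serine proteases. The best hit of 17 members was a silkworm protein and that of 20 a protein of another insect, so a name is that of the most similar protein. Among the trypsin names BGIBMGA009953 is an antitrypsin, a serpin that blocks trypsin rather than a protease. Likewise BGIBMGA000549 was named after a serine protease of the mammalian thymus, BGIBMGA009610 after HP21, a protease of the blood in moths, and BGIBMGA009551 after a serine proteinase-like protein. A level of 10 RPM was reached in at least 1 library by 21 members, of which 10 had trypsin names, 3 chymotrypsin names and 8 other names. The remaining 16 stayed at or below 6.03 RPM, and 8 of these stayed below 1 RPM in every library.

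As a class the serine proteases took fewer tags in 932 after heat than in 932 control, and more tags in HY after heat than in HY control. The 37 members summed to 10063 RPM in 932 heat and 13824 RPM in 932 control, and to 6728 RPM in HY heat and 2065 RPM in HY control. HY control was thus the library with the lowest sum, below all 3 others. The log2 ratio of the sums was -0.46 for heat over control in 932, with an exact 95% interval of -0.47 to -0.44, and 1.70 in HY, with an interval of 1.67 to 1.73. These intervals cover counting error only. Since this is RNA from whole midgut, fewer cells that make the enzymes and less RNA per cell cannot be told apart.

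**Figure D1:**
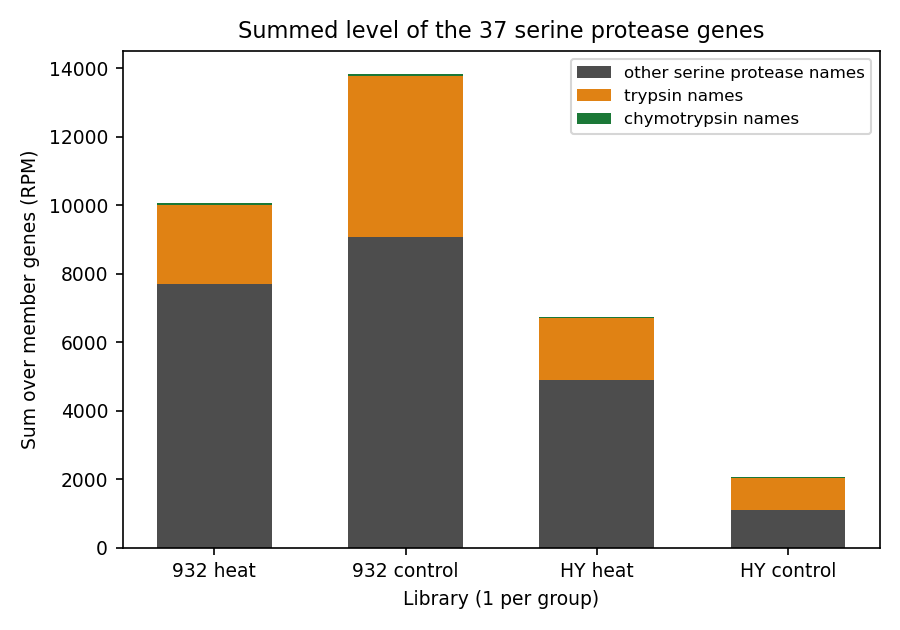
Summed level (RPM, linear axis from 0) of the 37 serine protease genes in each of the 4 libraries, stacked by the name of the best hit. The bars stand at 10063 RPM for 932 heat, 13824 for 932 control, 6728 for HY heat and 2065 for HY control, and chymotrypsin names are barely visible.

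The median of all genes shifted in HY as well, and the class was set against that shift. Over the 2810 genes above the floor, the median log2 ratio of HY heat over HY control was 0.34, and relative to it the sum of the serine proteases stood at 1.37. In 932 the median gene was at 0.02, and the sum stood at -0.48 relative to it. As a share of the tags of all listed genes, the members took 6.63% in 932 heat and 7.42% in 932 control, against 4.49% in HY heat and 1.79% in HY control.

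Much of each sum came from BGIBMGA008514, a gene whose best hit was serine protease 36 of the bertha armyworm. It stood at 5575 RPM in 932 heat and 6641 RPM in 932 control, against 3693 RPM in HY heat and 663 RPM in HY control. The gene held 55.4% of the members' tags in 932 heat and 48.0% in 932 control, and 54.9% in HY heat and 32.1% in HY control. Without it the log2 ratios of the sums were -0.68 in 932 and 1.11 in HY, so the direction was kept in each variety and the HY ratio was clearly smaller.

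For single genes the log2 ratio of RPM plus 1 was used, which understates the change of low genes, and a gene was called higher or lower from 2-fold on. A floor of 1 RPM had to be met in either library of the pair for a gene to be counted. Square brackets hold the exact 95% interval of the log2 ratio of tag numbers without the added 1. The lowest listed value is 2 tags, and a gene listed at 0 may have had 1 tag, so no fold is given against such a library, and a call against it rests on the added 1.

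Genes with trypsin names went in several directions. BGIBMGA003568, closest to the alkaline trypsin A of the tobacco hornworm, stood at 926 RPM in 932 heat and 2052 RPM in 932 control, against 603 RPM in HY heat and 264 RPM in HY control. Its log2 ratio for heat was -1.15 [-1.19 to -1.10] in 932 and 1.19 [1.11 to 1.28] in HY, lower in the heated library of one variety and higher in that of the other. The HY ratio was 0.85 relative to the median gene and then below 2-fold. BGIBMGA003605, a trypsin-like proteinase, stood at 803 RPM in 932 heat and 1499.7 RPM in 932 control, against 768 RPM in HY heat and 57.4 RPM in HY control. HY control was the library apart here, and the other 3 lay within a far narrower span. The ratio for heat was -0.90 [-0.95 to -0.85] in 932 and 3.72 [3.58 to 3.91] in HY.

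A pair of trypsin genes was lower after heat in both varieties. BGIBMGA001320, named trypsin after a cotton bollworm protein, stood at 168 RPM in 932 heat and 534 RPM in 932 control, against 20.15 RPM in HY heat and 130.2 RPM in HY control. Its ratio for heat was -1.66 [-1.77 to -1.57] in 932 and -2.63 [-2.98 to -2.41] in HY. BGIBMGA003567, similar to the alkaliphilic protease P-IIc that was isolated from the digestive juice of silkworm larvae, stood at 86.5 RPM in 932 heat and 271 RPM in 932 control, against 22.15 RPM in HY heat and 55.35 RPM in HY control. The ratio was -1.64 [-1.80 to -1.51] in 932 and -1.28 [-1.62 to -1.03] in HY. Among the 22 members above the floor in both heat comparisons, these were the 2 called lower in each, and no member was called higher in each. Of the 2304 genes above the floor in both, 0.738% were called lower in each and 2.56% higher in each.

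The other model with the P-IIc hit, BGIBMGA003566, had a flat profile. It stood at 209.8 RPM in 932 heat and 156 RPM in 932 control, against 160.01 RPM in HY heat and 169.5 RPM in HY control, and no comparison reached 2-fold. Where copies are nearly identical, counting could divide their tags between them, and how the authors handled such tags is not given in the sources used here.

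Another 4 genes with trypsin names were moderate in level. BGIBMGA010276 stood at 45.5 RPM in 932 heat and 102 RPM in 932 control, against 68.1 RPM in HY heat and 115 RPM in HY control. It was lower after heat in each variety, with ratios of -1.14 [-1.37 to -0.95] in 932 and -0.74 [-0.93 to -0.57] in HY, and the HY ratio was -1.08 relative to the median gene. BGIBMGA013393, a trypsin-like protein, stood at 34.1 RPM in 932 heat and 16.8 RPM in 932 control, against 128 RPM in HY heat and 115 RPM in HY control. Among members at 10 RPM or more, it was the 1 that was at least 2-fold lower in 932 than in HY in both conditions. The ratios were -1.87 [-2.14 to -1.68] after heat and -2.71 [-3.10 to -2.48] in control. Its heat ratio in HY, 0.15, became -0.19 relative to the median gene.

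BGIBMGA003569, named trypsin-like protease, stood at 27.3 RPM in 932 heat and 14.0 RPM in 932 control, against 16.0 RPM in HY heat and 8.10 RPM in HY control. Its heat ratios were alike, 0.91 [0.57 to 1.36] in 932 and 0.90 [0.46 to 1.52] in HY, each just short of 2-fold. BGIBMGA010061, a relative of the trypsin precursor Hz8 of the corn earworm, stood at 2.40 RPM in 932 heat and 11.9 RPM in 932 control, against 1.17 RPM in HY heat and 2.07 RPM in HY control. It was lower after heat in 932, at -1.92 [-3.25 to -1.47], while the interval in HY, -2.41 to 0.63, included 0.

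The antitrypsin BGIBMGA009953, an inhibitor that the name rule took in, stood at 13.0 RPM in 932 heat and 30.5 RPM in 932 control, against 16.8 RPM in HY heat and 26.7 RPM in HY control. It was lower after heat in each variety, with ratios of -1.16 [-1.63 to -0.83] in 932 and -0.64 [-1.04 to -0.30] in HY, while the varieties differed by less than 2-fold in either condition. The last trypsin name, BGIBMGA010023, was at 0.34 RPM in 932 heat, 0.33 RPM in 932 control and 2.76 RPM in HY control and was listed at 0 in HY heat.

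Genes with chymotrypsin names took few tags and summed to 45.5 RPM in 932 heat and 48.9 RPM in 932 control, against 14.8 RPM in both HY heat and HY control. BGIBMGA008281, a chymotrypsin-like proteinase, stood at 14.9 RPM in 932 heat and 20.5 RPM in 932 control, against 5.16 RPM in HY heat and 2.41 RPM in HY control. BGIBMGA008279, which shares its hit, stood at 12.5 RPM in 932 heat and 19.9 RPM in 932 control and was listed at 0 in both HY libraries. These 2 genes were therefore tagged mainly in 932, in heated and control larvae alike. BGIBMGA010584, a chymotrypsinogen, that is the inactive precursor of a chymotrypsin, had another profile, with 14.2 RPM in 932 heat and 7.00 RPM in 932 control, against 7.83 RPM in HY heat and 11.2 RPM in HY control. Its heat ratio was 0.93 [0.48 to 1.59] in 932, and the interval in HY, -1.09 to 0.05, included 0.

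**Figure D2:**
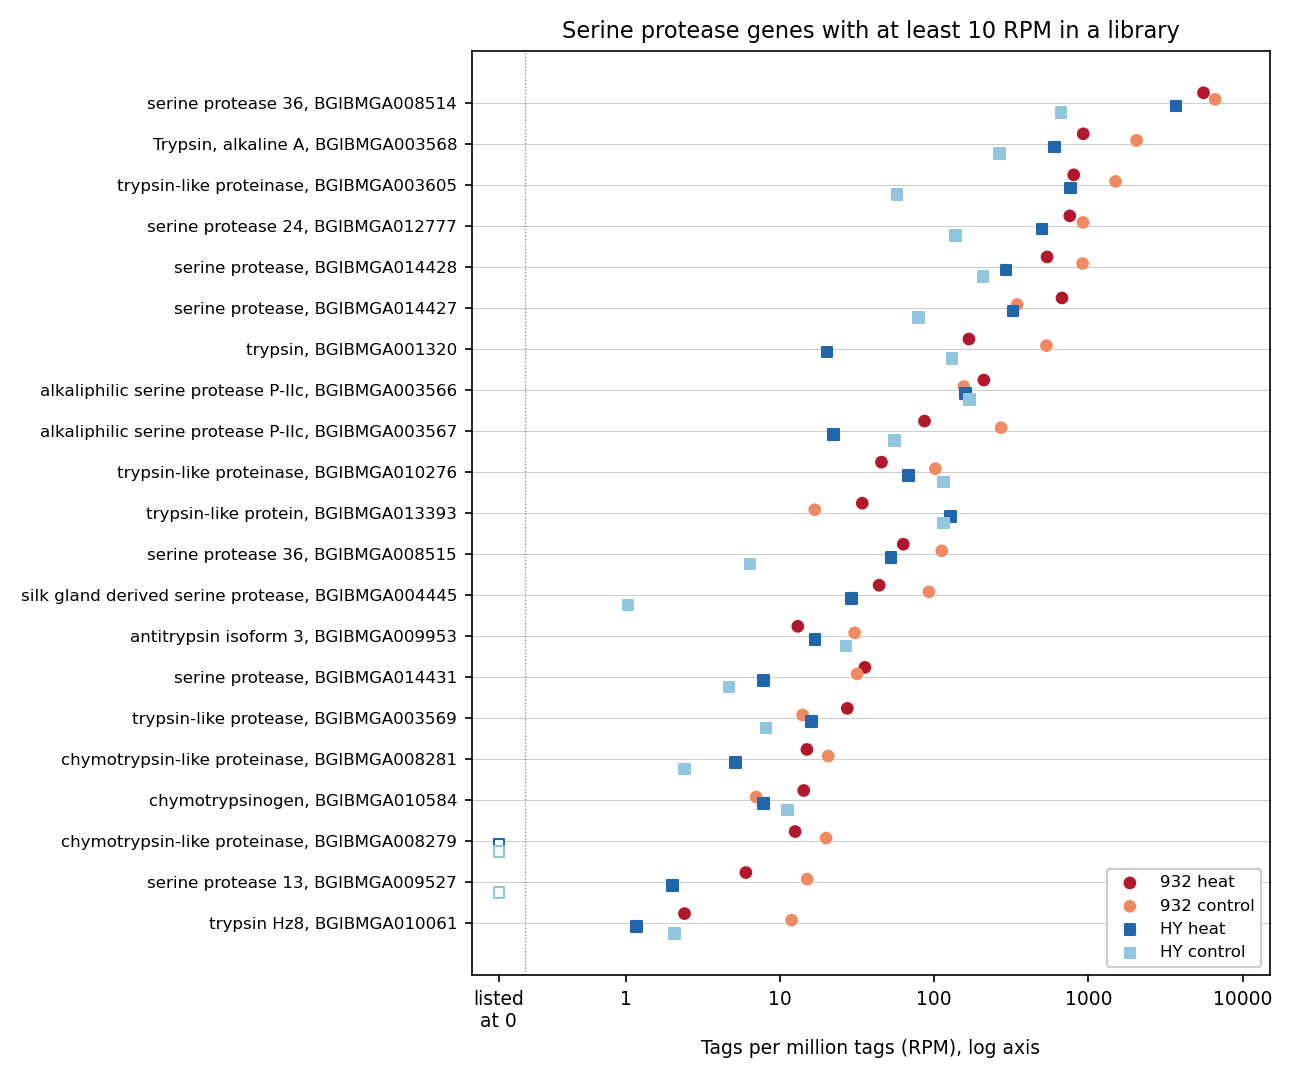
Level in RPM (log axis) of the 21 genes with at least 10 RPM in a library, from the highest mean at the top, with 1 point per library and open symbols for genes listed at 0. In most of the upper genes the HY control square lies well to the left of the other 3 points, as at 57.4 RPM for BGIBMGA003605, while BGIBMGA013393 has its HY squares on the right.

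Members with other serine protease names held 76.5% of the class's tags in 932 heat and 65.7% in 932 control, against 73.0% in HY heat and 53.5% in HY control. All 11 of them above the floor for heat in HY were above 0 on the log2 scale, as were 69.0% of all genes, and BGIBMGA009551, at 0.15, was below the median of all genes. Of the 11, 7 were called higher, beside 14.1% of all genes. In addition to BGIBMGA008514, with a ratio of 2.48 [2.43 to 2.53], the abundant genes were BGIBMGA012777 and the pair BGIBMGA014428 and BGIBMGA014427. BGIBMGA012777, after serine protease 24 of the bertha armyworm, stood at 757 RPM in 932 heat and 921 RPM in 932 control, against 500.35 RPM in HY heat and 137 RPM in HY control. Its heat ratio was -0.28 [-0.34 to -0.23] in 932 and 1.86 [1.76 to 1.98] in HY.

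BGIBMGA014428 and BGIBMGA014427 had the same silkworm serine protease precursor as best hit and differed in their response. BGIBMGA014428 stood at 539 RPM in 932 heat and 917 RPM in 932 control, against 292 RPM in HY heat and 207 RPM in HY control, with heat ratios of -0.76 [-0.83 to -0.70] and 0.49 [0.39 to 0.60]. BGIBMGA014427 stood at 674 RPM in 932 heat and 345 RPM in 932 control, against 324 RPM in HY heat and 79.3 RPM in HY control, with heat ratios of 0.96 [0.89 to 1.04] in 932 and 2.01 [1.88 to 2.18] in HY. In 932 these 2 models thus lay on opposite sides of 0, while in HY both were higher after heat. A further relative, BGIBMGA014431, whose hit is the silkworm gene Sp, stood at 35.5 RPM in 932 heat and 31.6 RPM in 932 control, against 7.83 RPM in HY heat and 4.66 RPM in HY control. In the gene order of RefSeq assembly ASM3026992v2, Sp and the gene of the hit shared by the pair, LOC692357, have 4 protein-coding genes between them.

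Lower in level, but with wide ratios, were BGIBMGA008515 and BGIBMGA004445. BGIBMGA008515, which shares the serine protease 36 hit with BGIBMGA008514, stood at 62.97 RPM in 932 heat and 112 RPM in 932 control, against 52.3 RPM in HY heat and 6.38 RPM in HY control. Its heat ratio was -0.82 [-1.02 to -0.64] in 932 and 2.85 [2.54 to 3.57] in HY. BGIBMGA004445, the silk gland derived serine protease Sgsp, stood at 43.9 RPM in 932 heat and 92.4 RPM in 932 control, against 29.1 RPM in HY heat and 1.03 RPM in HY control. Its ratio was -1.06 [-1.29 to -0.86] in 932 and 3.89 [3.66 to 6.28] in HY. The silk gland words matched 4 genes, among them an SRp25 nuclear protein and VMP25, matched only by p25 in the name. Fibroin P25 was at 0.69 RPM in 932 heat and listed at 0 in the other libraries. Fibroinase, a protease, was at 54.0 RPM in 932 heat and 24.3 RPM in 932 control, against 45.5 RPM in HY heat and 32.8 RPM in HY control, and the part of silk gland RNA in the result was not tested. BGIBMGA009527, after serine protease 13, stood at 6.0 RPM in 932 heat and 14.99 RPM in 932 control, against 2.00 RPM in HY heat, and was listed at 0 in HY control.

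Among the members below 10 RPM, BGIBMGA012786 (serine protease 3) stood at 5.83 RPM in 932 heat and 6.03 RPM in 932 control and was listed at 0 in both HY libraries. BGIBMGA014022 (putative chymotrypsin 7) stood at 3.77 RPM in 932 heat and 1.14 RPM in 932 control, against 1.00 RPM in HY heat and 0.69 RPM in HY control. The blood protease HP21, BGIBMGA009610, stood at 0.69 RPM in 932 heat and was listed at 0 in 932 control, against 4.00 RPM in HY heat and 0.69 RPM in HY control. BGIBMGA000549, the gene named after the thymus protease, stood at 0.69 RPM in 932 heat and 1.47 RPM in 932 control, against 3.00 RPM in HY heat and 1.72 RPM in HY control. These last 2 are named for proteins outside digestion, and their highest value was in HY heat. Together the 16 low members came to 12.9 RPM in 932 heat and 14.2 RPM in 932 control, against 12.15 RPM in HY heat and 9.13 RPM in HY control.

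Heat over control in 932, the variety labelled heat-tolerant, gave 9 members called lower and 1 called higher of 26 above the floor, and the other 11 members did not reach it. Over all 2708 genes above the floor 9.86% were called lower and 11.1% higher, so the share of members called lower exceeded that of all genes. The median log2 ratio of the members was -0.59, against 0.02 for all genes. The 9 were the trypsin names BGIBMGA003568, BGIBMGA001320, BGIBMGA003567, BGIBMGA010276 and BGIBMGA010061, the antitrypsin, the silk gland derived protease, BGIBMGA009527 and BGIBMGA008513, the last of which was at 1.47 RPM in control and listed at 0 after heat. The gene called higher was BGIBMGA014022. With whole counting intervals beyond 2-fold as the rule, 4 of 27 members above 0 in both libraries were lower and 0 higher, against 2.38% and 2.63% of 3156 genes.

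In HY, the variety labelled heat-sensitive, heat over control gave 9 members called higher and 3 lower of 25 above the floor. The shares over all 2810 genes were 14.1% higher and 4.59% lower. The members' median was 0.56, or 0.22 relative to the median of all genes. After centring on the median gene 8 members were higher and 4 lower, while 4.52% of all genes were higher and 8.61% lower. By whole counting intervals 7 of 25 members were higher and 2 lower, against 2.9% and 1.2% of 3176 genes. The 9 higher genes were 7 with other serine protease names, HP21 among them, plus the trypsin names BGIBMGA003568 and BGIBMGA003605, and the 3 lower genes were all of trypsin name. Of the 14 members with trypsin or chymotrypsin names above the floor, 2 were higher, a share near the 14.1% of all genes. The trypsin group as a whole had a median of -0.50 in HY although its sum was higher, 1803 RPM in HY heat and 946 RPM in HY control. In HY heat BGIBMGA003605 and BGIBMGA003568 carried most of the group's tags.

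**Figure D3:**
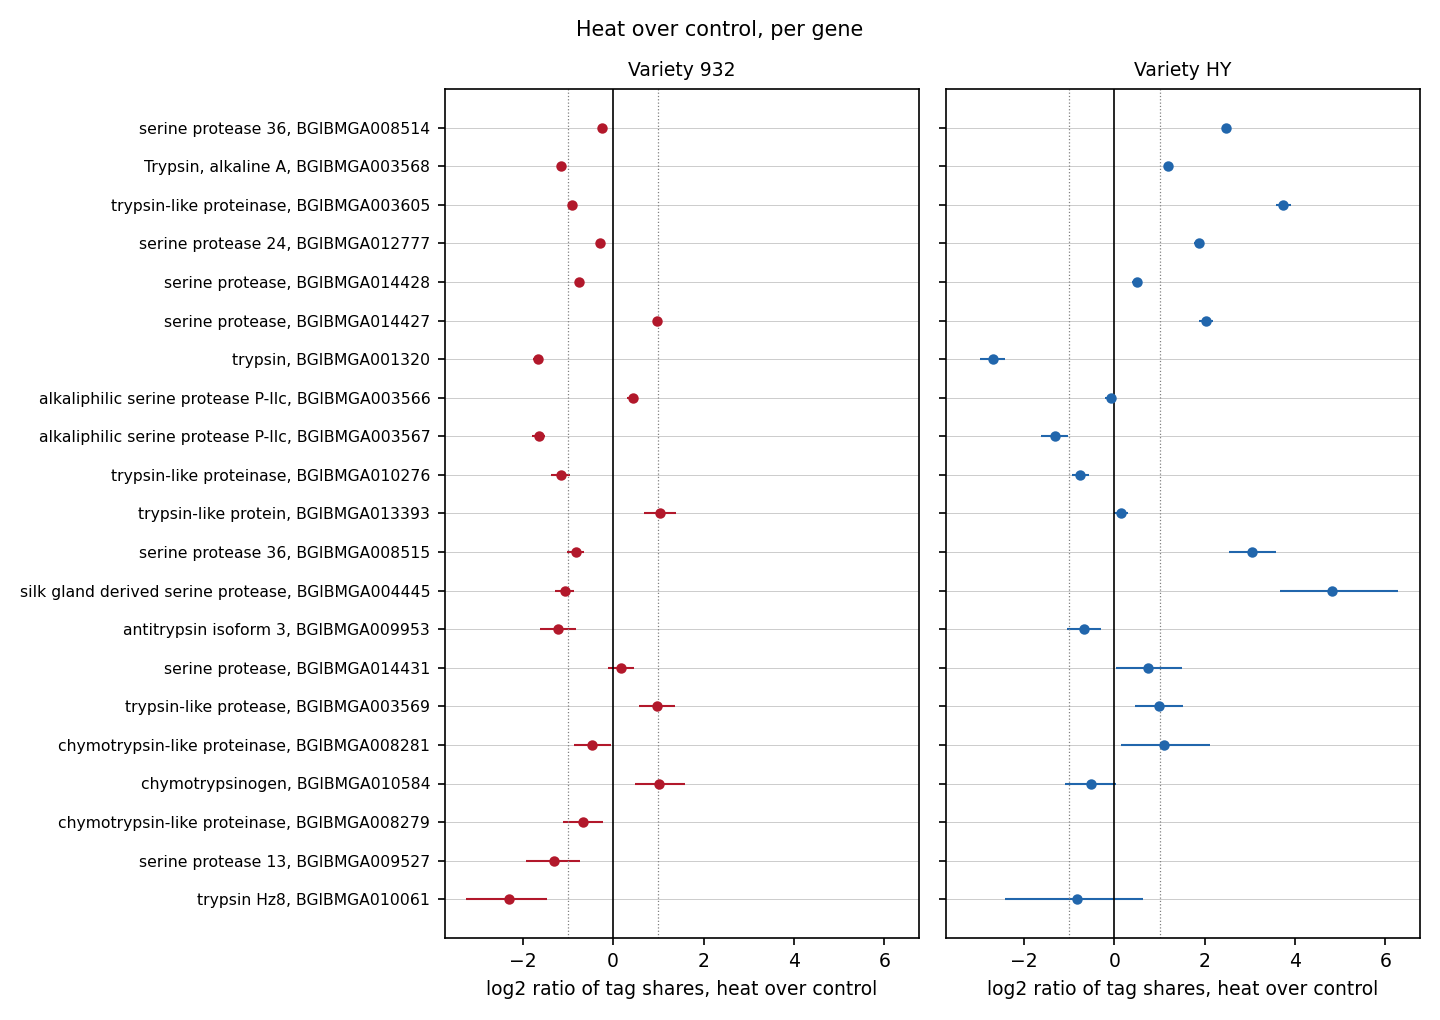
Log2 ratio of tag shares, heat over control, for the 21 genes with at least 10 RPM, in 932 on the left and HY on the right, with exact 95% counting intervals as bars. Dotted lines mark 2-fold, genes listed at 0 in a library have no point, and the top 5 genes lie left of 0 in 932 and right of 0 in HY.

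Taken by direction alone, 9 of the 21 genes at 10 RPM or more were lower after heat in 932 and higher after heat in HY. That is 42.9% of them, against 31.6% of the 1177 other genes at this level. Higher after heat in both varieties were 4, or 19.0%, against 39.1% of the other genes. Lower in both were 5, or 23.8%, against 18.9%, and 2 were higher in 932 and lower in HY, 9.52% against 8.75%. The remaining gene, BGIBMGA008279, was listed at 0 in both HY libraries. The heat responses share no library. As a difference of responses, 932 minus HY, 13 of 29 members were smaller in 932 by at least 2-fold and 2 were greater, with 18.8% and 8.09% of all genes. The median difference was -0.63 for members and -0.25 for all genes. By group it was -1.18 for other serine protease names, -0.36 for trypsin names and 0.14 for chymotrypsin names. No test of these differences is possible with 1 library per group.

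**Figure D4:**
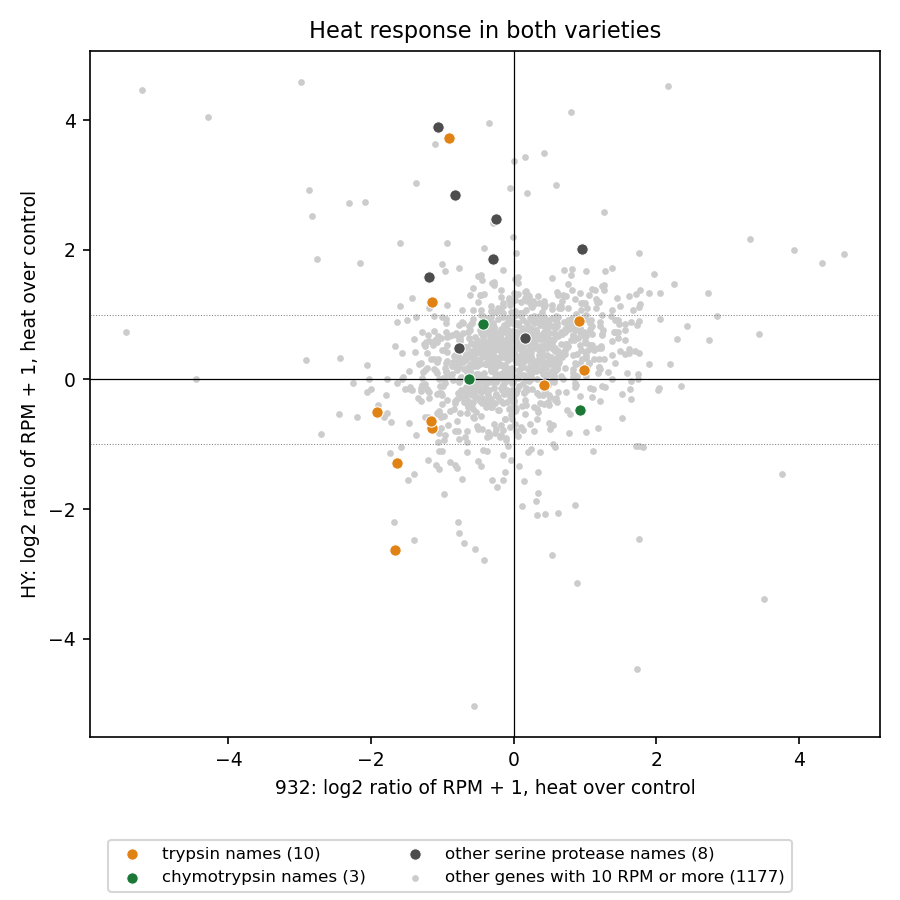
Log2 ratio of RPM plus 1, heat over control, in 932 (horizontal) and HY (vertical) for the 21 serine protease genes (coloured) and the 1177 other genes with at least 10 RPM in a library (grey), with dotted lines at 2-fold in HY. Of the 21 coloured genes, 9 lie in the upper left part, and BGIBMGA001320 is the lowest coloured point, at -1.66 and -2.63.

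In control larvae the serine proteases took far more tags in 932 than in HY. The sum was 13824 RPM in 932 control and 2065 RPM in HY control, a log2 ratio of 2.74 with an interval of 2.72 to 2.77. Of 28 members above the floor 16 were called higher in 932 and 3 lower, and over all 2780 genes these shares were 17.9% and 15.1%. The median of the members was 2.09, against 0.05 for all genes. By whole counting intervals 13 of 24 members were higher and 1 lower, against 6.18% and 4.24% of 2945 genes. Of the 21 genes at 10 RPM or more, the widest ratio with tags in both libraries was that of the silk gland derived protease, 5.52 [5.35 to 7.93], followed by BGIBMGA003605 at 4.68 [4.55 to 4.87] and BGIBMGA008515 at 3.94 [3.65 to 4.65]. BGIBMGA008514 was at 3.32 [3.28 to 3.37]. The silk gland derived protease had 6 tags in HY control. With 10 added its ratio was 3.21, below the 4.48 of BGIBMGA003605. The 3 lower genes were BGIBMGA013393, BGIBMGA010023 and the serine proteinase-like gene BGIBMGA009551, which was listed at 0 in both 932 libraries and read 1.83 RPM in HY heat and 1.55 RPM in HY control.

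After heat the varieties lay closer together. The sum was 10063 RPM in 932 heat and 6728 RPM in HY heat, a log2 ratio of 0.58 with an interval of 0.56 to 0.60, or 0.84 relative to the median of all genes, which was -0.26. Of 27 members above the floor 10 were called higher in 932 and 4 lower, with 14.1% and 20.8% over all 2990 genes. By whole counting intervals 3 of 23 were higher and 2 lower, against 4.82% and 5.67% of 3070 genes. The 4 lower genes were BGIBMGA013393, BGIBMGA009551, HP21 and the gene named after the thymus protease. The median was 0.65, or 0.91 relative to all genes. The trypsin-like proteinase BGIBMGA003605 had a ratio of 0.06 [0.01 to 0.12] here, and BGIBMGA008514 of 0.59 [0.57 to 0.62]. The trypsin BGIBMGA001320 had the widest ratio with tags in both libraries, 3.00 [2.79 to 3.34], and BGIBMGA014431 and BGIBMGA003567 followed at 2.05 [1.72 to 2.67] and 1.92 [1.69 to 2.25]. Both in control and after heat, 8 of 26 members above the floor in each were called higher in 932 and 2 lower, against 8.41% and 9.43% of 2556 genes, so the joint count of lower calls was near the share of all genes. The comparisons in this and the preceding paragraphs share libraries, so the low HY control values enter the heat ratio of HY and the variety ratio of control larvae alike.

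**Figure D5:**
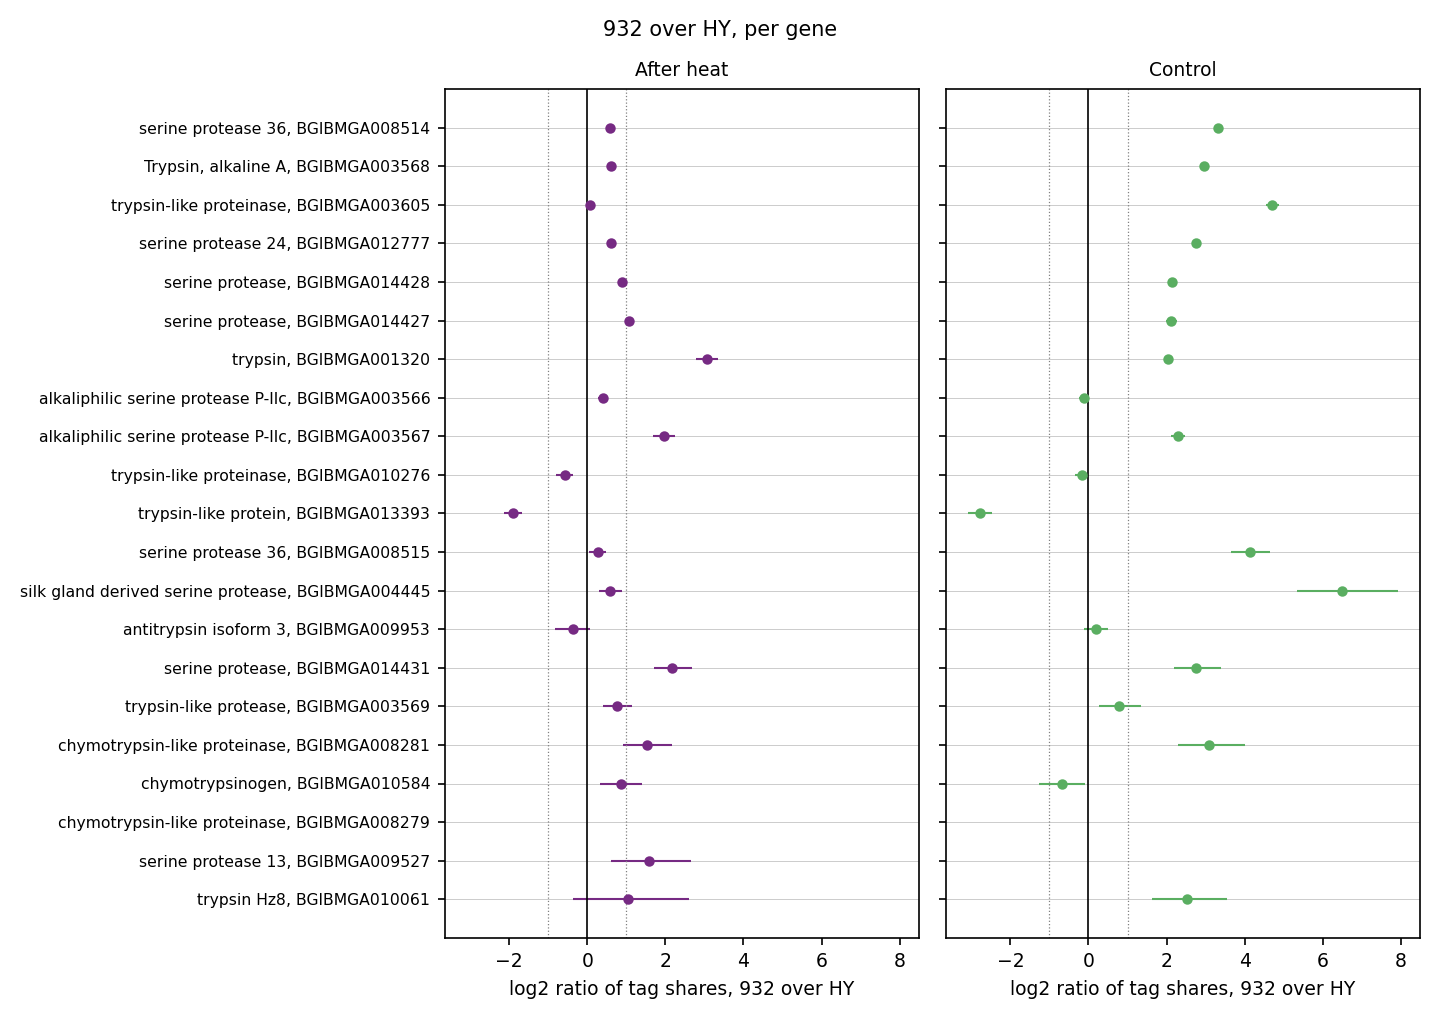
Log2 ratio of tag shares, 932 over HY, after heat on the left and in control on the right, for the 21 genes with at least 10 RPM, with exact 95% counting intervals as bars. Most points in control lie beyond 2-fold (dotted lines), up to the silk gland derived protease, while after heat BGIBMGA003605 is near 0 and BGIBMGA001320 is farthest to the right.

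Shared hits allowed relatives to be set side by side. In all, 5 hits were shared by 14 members. Of the 3 models with the serine protease 36 hit, BGIBMGA008514 and BGIBMGA008515 had the same calls in every comparison, and BGIBMGA008513 stayed at or below 1.47 RPM. BGIBMGA003605 and BGIBMGA012777, which have other hits, had the same calls as BGIBMGA008514 too. The chymotrypsin-like hit was shared by 4 models, 2 of which stayed below 1 RPM. The serine protease 13 hit was shared by 3, and only BGIBMGA009527 exceeded 1 RPM.

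Over 1197 other genes with at least 10 RPM in a library, the profile of BGIBMGA008514 was most like those of 2 genes named hypothetical protein, BGIBMGA011531 and BGIBMGA007864. The next were its relative BGIBMGA008515, BGIBMGA012777 and a putative UDP-glucose 4-epimerase, BGIBMGA001865. Likeness was the Euclidean distance of the log2 profile centred over the 4 libraries, which came to 0.17, 0.44, 0.50, 0.52 and 0.84 in that order. BGIBMGA011531 was listed at 0 in HY control and did not exceed 10.1 RPM, so its distance depends on the added 1. With 4 libraries many genes can share a profile.

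Of the exopeptidases that act on the fragments, aminopeptidases and carboxypeptidases did not have their lowest sum in HY control, while dipeptidases did. Aminopeptidases summed to 2949 RPM in 932 heat and 3823 RPM in 932 control, against 3382 RPM in HY heat and 3939 RPM in HY control. In HY none of 10 was called higher after heat and 5 were lower, and in 932 none of 11 was higher and 2 were lower. Over all genes the shares were 14.1% higher and 4.59% lower in HY, and 11.1% higher and 9.86% lower in 932. Carboxypeptidases summed to 1533 RPM in 932 heat and 1062 RPM in 932 control, against 336 RPM in HY heat and 770 RPM in HY control, the reverse order to the serine proteases within each variety. In this group 2 of 15 were higher and 3 lower after heat in 932, and 3 of 13 higher and 6 lower in HY. The 13.3% higher in 932 was near the share of all genes. The 3 dipeptidases summed to 44.8 RPM in 932 heat and 43.7 RPM in 932 control, against 23.3 RPM in HY heat and 20.2 RPM in HY control. Of these 2 were above the floor, with no call for heat in either variety.

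Protease inhibitors, here the genes with serpin or protease inhibitor in the hit name and so without the antitrypsin described above, took more tags in HY than in 932. They summed to 16.8 RPM in 932 heat and 19.4 RPM in 932 control, against 128 RPM in HY heat and 106 RPM in HY control. With the antitrypsin added the sums were 29.8 RPM in 932 heat and 49.9 RPM in 932 control, against 145 RPM in HY heat and 133 RPM in HY control. Of 7 inhibitors above the floor in control larvae 5 were lower in 932 and 1 higher, and after heat 5 of 9 were lower and 1 higher. Over all genes 15.1% were lower in 932 and 17.9% higher in control larvae, and 20.8% lower and 14.1% higher after heat. Proteases with a clip domain act in blood cascades. The 2 genes with clip in the hit name summed to no more than 4.00 RPM in any library.

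The libraries held 5799074 to 6139297 tags, of which the listed genes took 11.6% to 18.6%, lowest in HY control. Midgut markers (17 genes for peritrophic matrix proteins, intestinal mucins and the aminopeptidases N already counted above) were present, with 14 to 15 above 0. They summed to 6343 RPM in 932 heat, 11475 in 932 control, 10115 in HY heat and 7820 in HY control. A single gene, the peritrophic membrane chitin binding protein BGIBMGA001491, held 1982, 6170, 5774 and 3129 RPM of these sums. Muscle markers, 12 genes, summed to 745, 756, 899 and 668 RPM in the same order. Fat body names, 12 genes of which 3 were at 0 everywhere, summed to 48.9, 51.3, 18.15 and 23.6 RPM. Of these sums BGIBMGA012788, by name a 30kP protease A, held 30.9, 45.3, 15.3 and 9.31 RPM. Haemocyte names, 5 genes, summed to 15.6, 18.9, 94.1 and 14.8 RPM, the third value being mostly the immune gene hemolin at 87.1 RPM. Cuticle names, 19 genes, summed to 3811, 2713, 1489 and 3494 RPM. Nearly all of it came from BGIBMGA013778 and BGIBMGA005302, named CPH43, and BGIBMGA004124, named CPH45. BGIBMGA013778 held 1679, 1085, 739 and 841 RPM, and BGIBMGA005302 held 1227, 297, 682 and 743 RPM. BGIBMGA004124 held 896, 1322, 57.3 and 1902 RPM. The 4 genes matched by silk gland words summed to 55.75, 24.3, 46.5 and 32.8 RPM, nearly all of it fibroinase. No gene matched the Malpighian tubule names. The part of these levels in the results was not tested.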

How the data were processed

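RNA was taken from frozen midguts with Trizol and sequenced from standard Illumina libraries, per the labels' protocols. The authors deposited 1 normalized value per gene model and library, under the name TPM in the file header, beside the best protein hit. By their values these are RPM: at 1 total per library, 100% of the deposited values are whole tags within 0.0051 RPM, against at most 54.8% at other totals near it. Hence no correction for length shows, and the lowest value above 0 is 2 tags. How reads were aligned and counted, and on which build, is not given in the sources used here. The transcript suffix of the identifiers was left off.

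Members and lists were defined by words in the hit name and were chosen with earlier results of these data known. Named genes were all members with at least 10 RPM in a library, plus up to 3 of the rest per comparison, those with the greatest absolute ratio at 3 RPM or more. The companion lists were aminopeptidases, carboxypeptidases, dipeptidases, protease inhibitors and clip proteases. Intervals are exact (Clopper-Pearson) for the ratio of tag numbers. Without replicates no test was made. Other scalings, floors, an added 10 and narrower lists were tried. All 10 RefSeq hits matched a gene of the RefSeq table. The calculations were tested on simulated data. Python 3.11.15 was used with numpy 2.4.6 and pandas 2.3.3 for tables, with scipy 1.17.1 for intervals, and with matplotlib 3.10.9 for plots.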

Additional observations from a re-analysis of the deposited data

Results flagged for a closer look

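The heat response of the serine protease sum had opposite signs in 932 and HY, and the difference, 932 minus HY, was -2.16 on the log2 scale. Counting intervals on opposite sides of 0 were also found for 8 genes with at least 10 RPM. The differences of their log2 ratios were -2.73 for BGIBMGA008514, -2.34 for BGIBMGA003568, -4.62 for BGIBMGA003605, -2.15 for BGIBMGA012777, -1.25 for BGIBMGA014428, -3.67 for BGIBMGA008515, -4.95 for BGIBMGA004445 and -1.29 for BGIBMGA008281. After centring on the median gene, or with median-of-ratios scaling, 7 of the 8 kept intervals on opposite sides of 0, and that of BGIBMGA008281 in HY included 0, at -0.19 to 1.78 after centring. Before centring, in all 8 the heated library was lower than control in 932 and higher in HY. Direction alone was the same in 42.9% of the 21 members at 10 RPM or more and 31.6% of the 1177 other genes. How many of those other genes had intervals on opposite sides of 0 was not computed. The value of BGIBMGA004445 rests on 6 tags in HY control. Each response rests on 1 pair of libraries, and the differences were not tested.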

How the results depend on the processing

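Of 83 single-gene ratios, 1 crossed 0 under the scalings, that of BGIBMGA013393 for heat in HY (-0.19), and none with 10 added. With 10 added, 8 of 42 calls of single genes at 10 RPM or more were lost and none gained, and centring on the median gene lost 1 and gained 3. The log2 ratios of the sums, -0.46 and 1.70 for heat in 932 and HY, and 2.74 and 0.58 for 932 over HY in control and after heat, were -0.50, 1.36, 2.71 and 0.85 with median-of-ratios scaling, and -0.48, 1.37, 2.69 and 0.84 after centring. With trypsin and chymotrypsin names only they were -1.0, 0.92, 2.30 and 0.38, and without BGIBMGA008514 they were -0.68, 1.11, 2.36 and 0.56. Counts of calls are given beside the share of all genes called at the same setting. For heat in 932 the 1 higher member became 0 with a floor of 10 RPM (all genes 11.7%), 10 added (1.33%) or whole intervals (2.63%). The 9 lower of 26 became 4 of 26 with 10 added (1.99%) and 4 of 27 with whole intervals (2.38%). For heat in HY the 9 higher of 25 became 2 of 14 with trypsin and chymotrypsin names only, a share near the 14.1% of all genes. For 932 over HY in control the 16 higher of 28 became 7 of 15 with those names (17.9%). The 3 lower became 1 of 21 with the floor (14.6%), 1 of 28 with 10 added (3.17%) and 1 of 24 with whole intervals (4.24%). After heat the 10 higher of 27 became 6 of 19 with the floor (14.5%), 5 of 27 with 10 added (3.08%), 5 of 14 with those names (14.1%) and 3 of 23 with whole intervals (4.82%). The 4 lower became 1 of 19 with the floor (21.4%), 1 of 27 with 10 added (3.95%), 1 of 14 with those names (20.8%), 1 of 23 without the 4 members named as other proteins (20.8%), and 2 of 23 with whole intervals (5.67%). Whole intervals and the list without those 4 members were chosen after seeing the data. No paired analysis was possible because each group held 1 library. At 0.163 to 0.172 RPM per tag, genes under 1 RPM rest on fewer than 7 tags.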
